A study of Homo sapiens with 12 samples.

Results

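MYC and its network partners are a family of DNA-binding factors that meet at the same sites and set the transcription of growth genes up or down. The 10 genes MYC, MYCL, MAX, MXI1, MXD1, MXD3, MXD4, MNT, MGA and TFAP4 were taken by symbol from a table of counts per gene, where each had a row of its own, out of 26364 genes in all. All 10 passed the filter on low counts and stand among the 15087 genes tested. Polyadenylated RNA was sequenced from 2 established lymphoma lines, JeKo-1 and Granta-519, given 4 µM chidamide for 12 h or vehicle, with 3 libraries for each of the 4 groups. Chidamide is an inhibitor of histone deacetylases, the enzymes that remove acetyl groups from histones, and vehicle is the solvent without the drug. Both lines were grown in RPMI1640 with 10% serum, no transgene or other agent was named, and each line stands for a single tumour. The series is titled as a study of chidamide in double expressor lymphoma, a B-cell lymphoma with high MYC and BCL2 protein, and of repression of MYC expression and activity by the drug.

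MYC binds DNA only as a pair with MAX, preferring the E-box CACGTG, and recruits acetyltransferases and elongation factors to the genes of ribosome production, nucleotide synthesis and metabolism. MXI1, MXD1, MXD3, MXD4 and MNT pair with the same MAX protein, occupy the same boxes and bring in the SIN3 corepressor with its histone deacetylases, so that they act as antagonists of MYC. MGA pairs with MAX inside a Polycomb repressive complex called PRC1.6, and TFAP4 is a transcription factor gene that MYC induces and that binds the related box CAGCTG. In B cells MYC is switched on briefly in the germinal centre and is raised by translocation or gain in many lymphomas.

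Library totals ran from 12873642 to 16592694 counts. Whether replicates were grown as separate cultures is not said in the labels, and a p-value therefore covers no more than the variation among the libraries at hand, part of which may be technical. A level in these bulk samples is a share of its library, so fewer cells of a type and less RNA per cell cannot be told apart. The libraries labelled JeKo-1 had 44 counts of CCND1 over 3 libraries in chidamide and 5 in vehicle, and 0 counts of SOX11 in both groups, whereas the line is known for a translocation that activates CCND1. They are therefore called libraries with the JeKo-1 label throughout. Both sets of libraries carried B-cell transcripts, with the 8 genes of a B-cell and mantle cell list summing to between 2779 and 6007 CPM (counts scaled to TMM-adjusted library sizes). CCND1 and SOX11 are in that list. CCND1 averaged 1747 CPM with chidamide and 2114 CPM with vehicle in Granta-519, against 0.934 and 0.123 CPM under the JeKo-1 label. SOX11 averaged 133 CPM with chidamide and 157 CPM with vehicle in Granta-519. The 10 myeloid markers summed to 45.2 to 46.6 CPM in chidamide against 5.30 to 8.75 CPM in vehicle with the JeKo-1 label, and to 99.2 to 107 CPM against 29.3 to 30.4 CPM in Granta-519. Of these 10, 5 were tested, and 4 of them under the JeKo-1 label and 3 in Granta-519 were called higher with the drug. Among all tested genes 35.3% and 39.6% were called higher. MPO was at 0 counts in both groups with the JeKo-1 label and S100A8 in both groups of Granta-519. ITGAM alone averaged 24.2 CPM with chidamide and 2.42 CPM with vehicle under the JeKo-1 label, and 79.3 and 24.9 CPM in Granta-519. The 10 T-cell and natural killer markers summed to 6.12 to 8.51 CPM against 2.73 to 4.72 CPM with the JeKo-1 label and to 4.07 to 4.93 CPM against 0.847 to 1.20 CPM in Granta-519. The 10 epithelial and stromal markers summed to 35.4 to 39.1 CPM against 26.1 to 29.5 CPM with the JeKo-1 label and to 89.4 to 95.8 CPM against 68.7 to 72.0 CPM in Granta-519. In each of the last 2 lists 4 of the 10 markers were tested, of which 2 were called higher with the JeKo-1 label and 3 in Granta-519. COL1A1 alone averaged 31.6 CPM with chidamide and 26.7 CPM with vehicle under the JeKo-1 label. Among the defining genes CD2, CD7, CD8A and COL3A1 were at 0 counts in both groups with the JeKo-1 label, and CD3D, CD3G, KRT19, COL3A1 and DCN in both groups of Granta-519. These marker sums moved with the drug beside every drug effect below, and their part in the results was not tested.

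Chidamide changed most of the network, as it did most of all tested genes, and it changed MYC in opposite directions in the 2 lines. MYC was lower with the drug under the JeKo-1 label and higher with it in Granta-519, while in both lines MYCL, MXI1 and MGA rose and MAX, MNT and TFAP4 fell. MXD1 rose under the JeKo-1 label and fell in Granta-519, and MXD3 and MXD4 fell in Granta-519. Under the JeKo-1 label 8 of the 10 genes passed an adjusted p of 0.05 (edgeR's quasi-likelihood test, Benjamini-Hochberg over all tested genes), 4 higher and 4 lower. The background there was 66.4% of all tested genes. In Granta-519 all 10 passed, 4 higher and 6 lower, on a background of 70.9%. Changes of 2-fold or more were reached by 4 members under the JeKo-1 label and by 5 in Granta-519. Among all tested genes, 17.1% were called 2-fold or more higher and 2.65% 2-fold or more lower under the JeKo-1 label, and 18.2% and 2.41% in Granta-519.

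**Figure D1:**
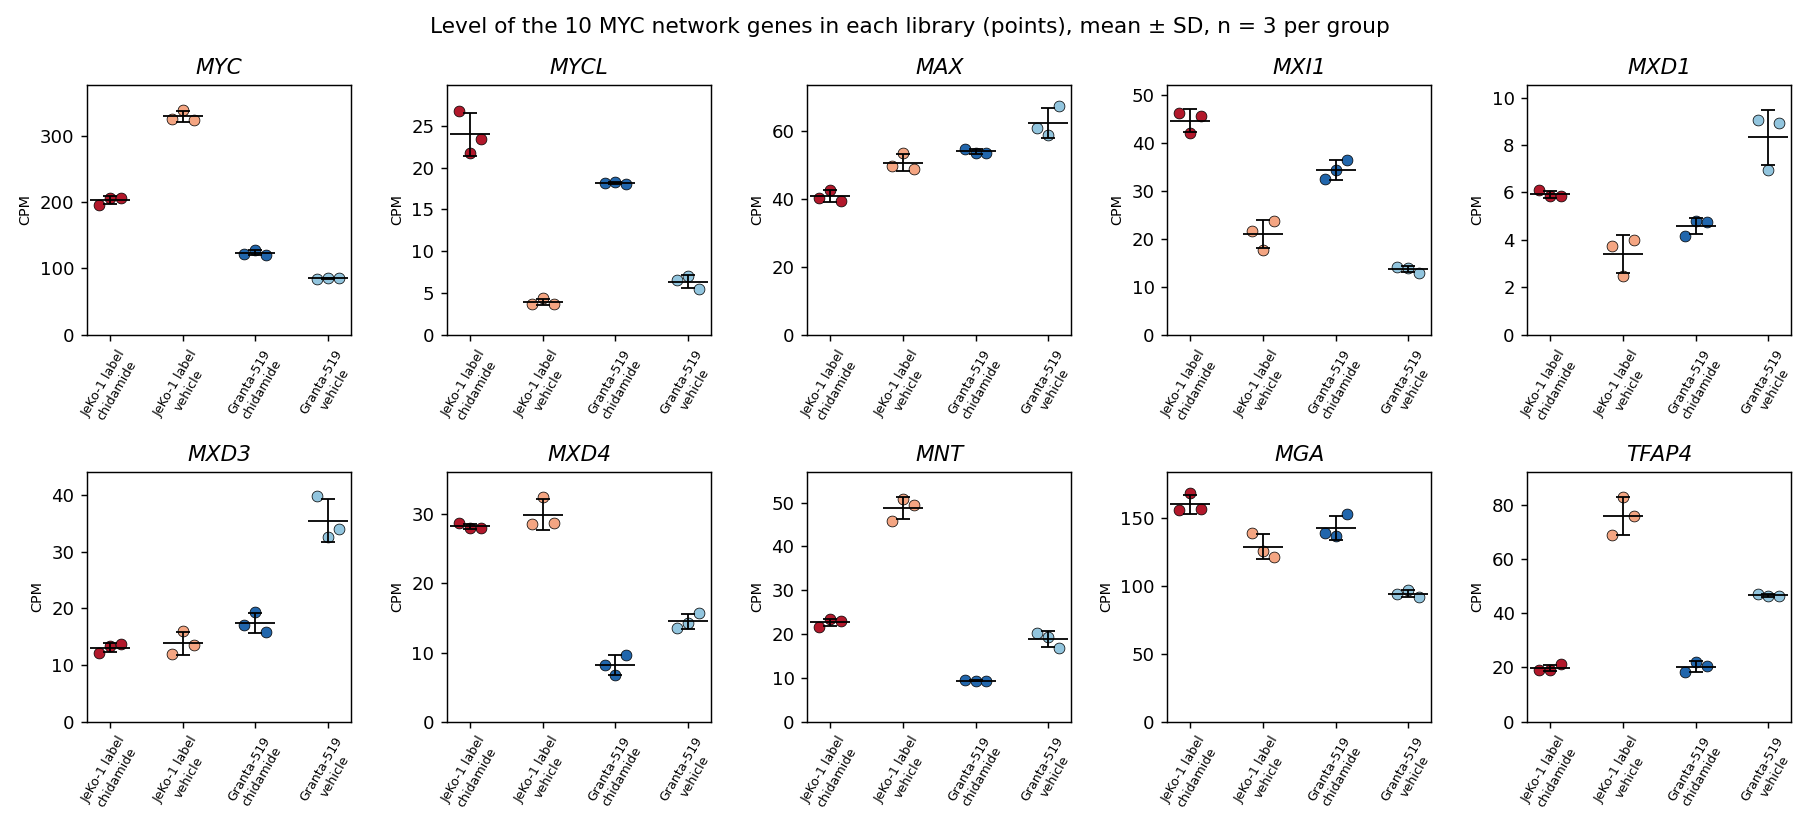
Level in CPM (vertical axes, each from 0) of the 10 genes in each of 12 libraries (points), with the mean and SD of 3 libraries per group (bars). MYC runs from 196 to 206 CPM with chidamide and from 323 to 339 CPM with vehicle under the JeKo-1 label, but from 121 to 128 CPM with chidamide and from 84.0 to 86.0 CPM with vehicle in Granta-519.

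MYC, the activator at the centre of the network, had 196, 206 and 206 CPM in the chidamide libraries with the JeKo-1 label, against 325, 339 and 323 CPM in their vehicle libraries. Granta-519 had 122, 128 and 121 CPM with chidamide, against 84.0, 85.1 and 86.0 CPM with vehicle. The chidamide and vehicle libraries did not overlap in either line, and they lay on opposite sides of each other. How many of all tested genes had no overlap was not counted, here or for the genes below. Of all tested genes 66.4% were called under the JeKo-1 label and 70.9% in Granta-519. The log2 changes were −0.70 ± 0.04 under the JeKo-1 label and 0.54 ± 0.05 in Granta-519 (SE; edgeR adjusted p = 3.03e-21 and 4.34e-15). The effects differed by −1.24 ± 0.06 on the log2 scale (edgeR adjusted p = 2.53e-23). With drug and line together, MYC ran from vehicle under the JeKo-1 label at the top, through chidamide under that label and chidamide in Granta-519, to vehicle in Granta-519, and each neighbour in that order differed from the next. The log2 difference between the lines, JeKo-1 label minus Granta-519, was 0.71 ± 0.04 with chidamide and 1.95 ± 0.05 with vehicle.

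MYCL, a paralog of MYC that also pairs with MAX and is known from small cell lung cancer, had 26.8, 21.8 and 23.4 CPM with chidamide under the JeKo-1 label, against 3.69, 4.35 and 3.65 CPM with vehicle. The Granta-519 libraries had 18.2, 18.3 and 18.0 CPM with chidamide, against 6.52, 7.02 and 5.47 CPM with vehicle. Every chidamide library was above every vehicle library in both lines. MYCL had the largest log2 change of the 10 genes in each line, 2.62 ± 0.13 under the JeKo-1 label and 1.52 ± 0.12 in Granta-519 (SE; edgeR adjusted p = 5.75e-25 and 1.05e-16). The effect under the JeKo-1 label was larger by 1.11 ± 0.19 (edgeR adjusted p = 2.38e-06). With vehicle the gene was lower under the JeKo-1 label than in Granta-519, and with chidamide it was higher, by −0.70 ± 0.16 and 0.41 ± 0.10 on the log2 scale.

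On a length-scaled score, which allows levels of different genes to be compared, MYCL stayed far below MYC. MYC scored 17.4 ± 0.54 with chidamide and 25.8 ± 0.54 with vehicle under the JeKo-1 label, and 10.6 ± 0.28 with chidamide and 7.35 ± 0.08 with vehicle in Granta-519 (SD, n = 3). MYCL scored 0.791 ± 0.08 and 0.117 ± 0.01 with chidamide and vehicle under the JeKo-1 label, and 0.598 ± 0.003 and 0.210 ± 0.03 with chidamide and vehicle in Granta-519. Its share of the summed score of MYC and MYCL was 4.35% with chidamide and 0.451% with vehicle under the JeKo-1 label, and 5.34% with chidamide and 2.78% with vehicle in Granta-519. MYCN, the third paralog, had 0 counts in all 6 libraries with the JeKo-1 label. In Granta-519 it had 20 counts over 3 libraries with chidamide and 36 with vehicle, a difference that did not pass the test (edgeR adjusted p = 0.175).

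MAX, the common partner of MYC, its paralogs and its antagonists, had small changes. Under the JeKo-1 label it had 40.3, 42.7 and 39.3 CPM with chidamide, against 49.6, 53.4 and 48.9 CPM with vehicle. For Granta-519 the values were 54.7, 53.5 and 53.5 CPM with chidamide, against 60.9, 58.7 and 67.2 CPM with vehicle. The groups did not overlap in either line, and MAX fell by 0.31 ± 0.07 and 0.21 ± 0.06 on the log2 scale (SE; edgeR adjusted p = 4.58e-05 under the JeKo-1 label and 0.00310 in Granta-519). With upper-quartile scaling the changes were −0.17 and −0.11, and that in Granta-519 did not pass (edgeR adjusted p = 0.113). The difference between the effects was −0.11 ± 0.09 (edgeR adjusted p = 0.392), and its sign turned under library-size scaling, without the filter on low counts and with the length-scaled score. Chidamide libraries of Granta-519 and vehicle libraries with the JeKo-1 label, neighbours in the order of levels, differed by 0.09 on the log2 scale (edgeR adjusted p = 0.193). That step passed under 8 of 23 alternatives, among them upper-quartile scaling at 0.26 (edgeR adjusted p = 0.000347) and the fit without vehicle replicate 2 of the JeKo-1 label at 0.15 (0.0370).

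The antagonists moved apart from each other. MXI1, which recruits SIN3 and can replace MYC on MAX, had 46.3, 42.0 and 45.7 CPM with chidamide under the JeKo-1 label, against 21.6, 17.8 and 23.7 CPM with vehicle. The Granta-519 libraries held 32.4, 34.4 and 36.5 CPM with chidamide, against 14.1, 13.9 and 12.9 CPM with vehicle. All chidamide libraries of a line were above all of its vehicle libraries. The rises were 1.09 ± 0.08 under the JeKo-1 label and 1.33 ± 0.09 in Granta-519 on the log2 scale (SE; edgeR adjusted p = 6.63e-17 and 4.56e-19). The effects differed by −0.24 ± 0.13 (edgeR adjusted p = 0.129), but by −0.35 without vehicle replicate 2 of the JeKo-1 label (edgeR adjusted p = 0.0169).

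MNT, the most widely expressed antagonist in mammalian tissues, moved the other way. It had 21.7, 23.4 and 22.9 CPM with chidamide under the JeKo-1 label, against 45.9, 50.8 and 49.5 CPM with vehicle. Levels in Granta-519 were 9.38, 9.18 and 9.29 CPM with chidamide, against 20.3, 19.4 and 16.9 CPM with vehicle. The chidamide libraries lay below the vehicle libraries in both lines without overlap. MNT fell by 1.105 ± 0.08 under the JeKo-1 label and by 1.02 ± 0.10 in Granta-519 on the log2 scale (SE; edgeR adjusted p = 4.64e-18 and 5.04e-13). The difference between the effects was −0.08 ± 0.13 (edgeR adjusted p = 0.683). Its sign turned under library-size scaling and without the filter on low counts, and it passed the test on the length-scaled score with a pseudocount of 1 (−0.18; limma adjusted p = 0.0100).

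MXD1, an antagonist known from differentiating cells, was the least counted member, with 277 and 136 counts over 3 libraries in chidamide and vehicle under the JeKo-1 label and 199 and 383 counts in chidamide and vehicle in Granta-519. It had 6.09, 5.83 and 5.86 CPM with chidamide under the JeKo-1 label, against 3.76, 2.47 and 3.98 CPM with vehicle. The line Granta-519 had 4.18, 4.80 and 4.75 CPM with chidamide, against 9.06, 6.96 and 8.93 CPM with vehicle. Groups of a line did not overlap, and the drug turned the order of the lines round. The log2 changes were 0.80 ± 0.18 under the JeKo-1 label and −0.86 ± 0.16 in Granta-519 (SE; edgeR adjusted p = 0.000121 and 5.05e-06), and they differed by 1.66 ± 0.24 (edgeR adjusted p = 1.12e-07). On the length-scaled score with a pseudocount of 0.1, which weighs on a gene this low, the changes were 0.43 and −0.47. Between the lines in chidamide the difference was 0.37 ± 0.17 (edgeR adjusted p = 0.0392), and that call held under 11 of 23 alternatives.

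MXD3, an antagonist known in the mouse from proliferating cells in S phase, had 12.2, 13.4 and 13.7 CPM with chidamide under the JeKo-1 label, against 12.0, 15.97 and 13.5 CPM with vehicle, and those groups overlapped. Granta-519 libraries gave 17.1, 19.3 and 15.8 CPM with chidamide, against 39.9, 32.7 and 34.1 CPM with vehicle, with no overlap. The log2 change in Granta-519 was −1.03 ± 0.09 (SE; edgeR adjusted p = 3.04e-14). Under the JeKo-1 label it was −0.08 ± 0.11 (edgeR adjusted p = 0.567), with a sign that turned under upper-quartile and library-size scaling, with the length-scaled score and without vehicle replicate 2. The effects differed by 0.95 ± 0.15 (edgeR adjusted p = 4.14e-07).

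MXD4, another SIN3 recruiter, had 28.7, 28.0 and 28.1 CPM with chidamide under the JeKo-1 label, against 28.6, 32.5 and 28.7 CPM with vehicle, again with overlap. In Granta-519 the gene had 8.15, 6.78 and 9.63 CPM with chidamide, against 13.6, 14.2 and 15.7 CPM with vehicle, with no overlap. The log2 change in Granta-519 was −0.82 ± 0.11 (SE; edgeR adjusted p = 8.46e-09). It was −0.08 ± 0.09 under the JeKo-1 label (edgeR adjusted p = 0.409), where the sign turned under upper-quartile and library-size scaling and with the length-scaled score. The effects differed by 0.74 ± 0.14 (edgeR adjusted p = 3.29e-05). The lines stood further apart with chidamide than with vehicle, by 1.78 ± 0.10 and 1.05 ± 0.10 on the log2 scale with the JeKo-1 label higher each time.

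**Figure D2:**
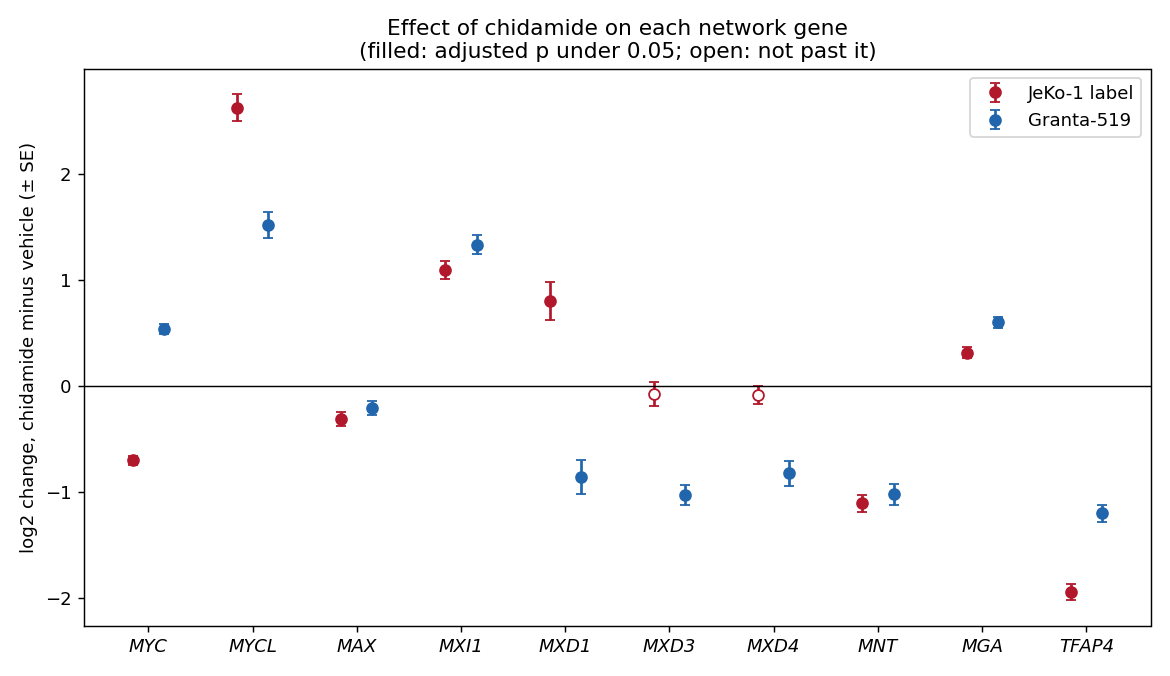
Log2 change of each gene, chidamide minus vehicle (vertical axis), with its SE, under the JeKo-1 label (red) and in Granta-519 (blue); filled points passed an adjusted p of 0.05. MYC and MXD1 lie on opposite sides of 0 in the 2 lines, and MXD3 and MXD4 are open points only under the JeKo-1 label, where their sign turned under other scalings.

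The promoters of 4 members are shown: the 3 with a box upstream of the start (MNT, MXD4 and MXD3) and, beside them, that of MYCL, which had the largest changes. Each window runs from 250 bases before to 50 bases after the RefSeq start on GRCh38.p14, printed on the strand of the gene, here the minus strand each time, with CACGTG or CAGCTG in capitals. Both boxes read the same on the other strand and cannot overlap each other.
MNT, chr17:2401011-2401310: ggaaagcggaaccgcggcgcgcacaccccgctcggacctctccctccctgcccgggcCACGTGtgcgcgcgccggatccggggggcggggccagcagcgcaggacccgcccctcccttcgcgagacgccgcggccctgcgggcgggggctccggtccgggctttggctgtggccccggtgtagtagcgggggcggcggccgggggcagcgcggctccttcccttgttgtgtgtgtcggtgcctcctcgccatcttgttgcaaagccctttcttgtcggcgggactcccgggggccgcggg
MXD4, chr4:2262060-2262359: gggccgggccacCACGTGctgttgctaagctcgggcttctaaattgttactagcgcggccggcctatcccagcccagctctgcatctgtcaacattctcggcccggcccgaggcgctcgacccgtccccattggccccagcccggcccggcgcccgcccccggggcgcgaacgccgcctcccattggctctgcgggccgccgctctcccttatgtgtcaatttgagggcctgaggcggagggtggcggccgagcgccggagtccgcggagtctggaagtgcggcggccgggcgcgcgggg
MXD3, chr5:177312703-177313002: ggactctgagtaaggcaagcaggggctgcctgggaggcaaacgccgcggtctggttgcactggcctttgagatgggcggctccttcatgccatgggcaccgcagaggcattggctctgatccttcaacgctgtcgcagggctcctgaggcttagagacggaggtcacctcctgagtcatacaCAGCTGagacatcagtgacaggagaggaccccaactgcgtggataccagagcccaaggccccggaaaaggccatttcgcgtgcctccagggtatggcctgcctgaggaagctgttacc
MYCL, chr1:39901868-39902167: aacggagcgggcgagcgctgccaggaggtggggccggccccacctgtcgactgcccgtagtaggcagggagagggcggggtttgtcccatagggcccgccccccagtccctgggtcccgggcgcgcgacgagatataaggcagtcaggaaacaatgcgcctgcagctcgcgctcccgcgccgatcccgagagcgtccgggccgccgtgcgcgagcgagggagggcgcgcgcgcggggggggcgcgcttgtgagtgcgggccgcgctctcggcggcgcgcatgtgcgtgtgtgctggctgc
The box of MYC and MAX, CACGTG, begins 193 bases before the start in MNT and 238 bases before it in MXD4. The box of TFAP4, CAGCTG, begins 68 bases before the start in MXD3, and the MYCL window held neither. One of the 3 windows of MGA also held CAGCTG, downstream of the start, and MAX, MXD1 and MXI1 held neither box. Windows were at hand for 8 of the 10 members, with up to 3 a gene, and 2 of these 8 genes held the MYC box and 2 the TFAP4 box, 25.0% each. Counted in the same way per gene, CACGTG stood in 12.4% of 10858 tested genes with a window and CAGCTG in 22.7%, and over all 35116 windows of this length the shares were 7.26% and 17.9%. A match describes the letters in a window and is not a site of binding, and no binding was measured.

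Per length, the antagonists scored below MYC in every group, and their makeup shifted with the drug. The summed score of MXI1, MXD1, MXD3, MXD4 and MNT was 5.80 ± 0.12 with chidamide and 5.22 ± 0.21 with vehicle under the JeKo-1 label, and 3.86 ± 0.12 with chidamide and 4.78 ± 0.30 with vehicle in Granta-519 (SD, n = 3). The score lacks the TMM adjustment of CPM. Its factors were 1.02 to 1.03 with chidamide and 0.928 to 0.938 with vehicle under the JeKo-1 label, and 1.02 to 1.03 in both groups of Granta-519. The higher sum with chidamide under the JeKo-1 label therefore cannot be read as a rise in CPM. Shares and ratios within a library do not depend on these factors. MXI1 took 40.8% of it with chidamide and 19.5% with vehicle under the JeKo-1 label, and 47.2% with chidamide and 15.3% with vehicle in Granta-519. In vehicle MNT scored highest of the 5 under the JeKo-1 label (1.86 ± 0.09), and MXD3 scored highest in Granta-519 (2.30 ± 0.25). In chidamide MXI1 scored highest in both, at 2.37 ± 0.13 under the JeKo-1 label and 1.83 ± 0.11 in Granta-519.

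The ratio of MYC plus MYCL to the 5 antagonists was 3.05, 3.24 and 3.14 in the chidamide libraries with the JeKo-1 label, against 5.14, 4.96 and 4.79 in their vehicle libraries. In Granta-519 it was 2.97, 2.96 and 2.77 with chidamide, against 1.46, 1.66 and 1.64 with vehicle. The chidamide ratio was below the vehicle ratio under the JeKo-1 label and above it in Granta-519, with no overlap in either line. The 2 lines stood at 3.14 ± 0.10 and 2.90 ± 0.11 with chidamide and at 4.96 ± 0.18 and 1.59 ± 0.11 with vehicle, the JeKo-1 label first. On the log2 scale the ratio changed by −0.66 under the JeKo-1 label and by 0.87 in Granta-519, or by −1.04 and 0.76 with MNT left out of the antagonists. No test was made of this ratio, since it joins genes chosen with earlier results of these data known, and it counts RNA, not protein.

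**Figure D3:**
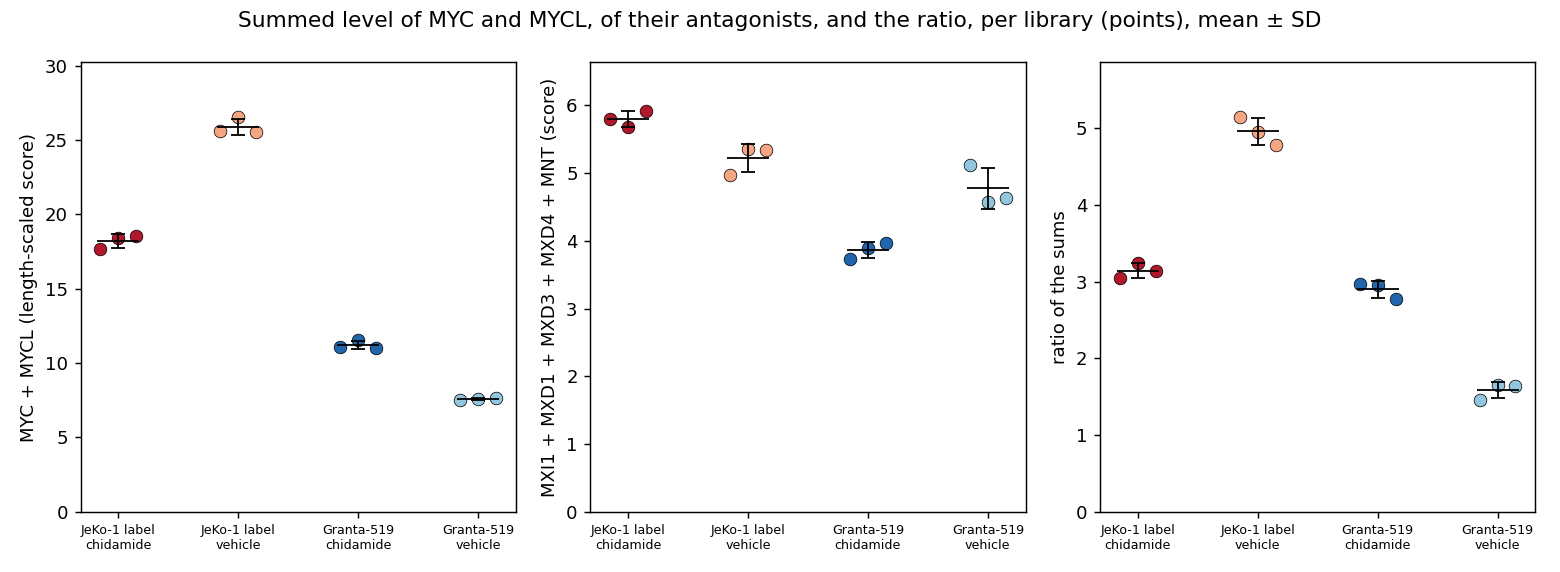
Summed length-scaled score of MYC and MYCL (left), summed score of the 5 antagonists (middle) and their ratio (right) in each library (points), with mean and SD of 3 libraries. The score lacks the TMM adjustment of CPM, so the higher antagonist sum with chidamide under the JeKo-1 label cannot be read as a rise in CPM. The ratio lies near 3 in the chidamide libraries of both lines, with means of 3.14 and 2.90, and at 4.96 and 1.59 in vehicle libraries with the JeKo-1 label and of Granta-519.

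MGA, the very large MAX partner of the PRC1.6 complex, had 156, 168 and 157 CPM with chidamide under the JeKo-1 label, against 139, 125 and 122 CPM with vehicle. Granta-519 had 139, 137 and 153 CPM with chidamide, against 94.2, 97.1 and 91.8 CPM with vehicle. Chidamide libraries were higher without overlap in both lines. MGA rose by 0.31 ± 0.05 under the JeKo-1 label and by 0.60 ± 0.05 in Granta-519 on the log2 scale (SE; edgeR adjusted p = 4.03e-07 and 5.29e-15). The difference between the effects, −0.29 ± 0.07 (edgeR adjusted p = 0.00125), did not pass under library-size scaling (adjusted p = 0.0948), without the filter on low counts (0.194) or with the length-scaled score (limma adjusted p = 0.240 to 0.322).

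Of 13 partners of MGA in PRC1.6, 4 rose and 5 fell under the JeKo-1 label and 3 rose and 4 fell in Granta-519. Among all tested genes 35.3% were called higher and 31.1% lower under the JeKo-1 label, and 39.6% and 31.3% in Granta-519. The list's median log2 change was 0.05 under the JeKo-1 label and 0.003 in Granta-519, beside 0.04 and 0.08 over all tested genes. L3MBTL2, the chromatin reader of the complex, averaged 24.3 CPM with chidamide and 77.3 CPM with vehicle under the JeKo-1 label and 25.0 and 55.0 CPM in Granta-519 with chidamide and vehicle, log2 changes of −1.67 ± 0.07 and −1.14 ± 0.07. WDR5, a scaffold of methyltransferase complexes that MYC also binds, fell by 1.12 ± 0.05 under the JeKo-1 label and 0.76 ± 0.05 in Granta-519. RYBP, the subunit that joins RING1 proteins to the complex, rose by 1.101 ± 0.07 under the JeKo-1 label and by 1.42 ± 0.06 in Granta-519. E2F6, its E2F-type DNA-binding subunit, rose by 0.34 ± 0.09 under the JeKo-1 label and 0.25 ± 0.08 in Granta-519, and the call in Granta-519 was lost without vehicle replicate 1, at 0.20 (edgeR adjusted p = 0.0527), and without the filter on low counts, at 0.14 (0.170).

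TFAP4, the MYC-induced factor, had 19.1, 19.0 and 21.1 CPM with chidamide under the JeKo-1 label, against 68.8, 83.1 and 76.0 CPM with vehicle. The values in Granta-519 were 18.4, 22.2 and 20.4 CPM with chidamide, against 47.0, 46.3 and 46.5 CPM with vehicle. The groups were far apart in both lines, and the chidamide libraries of the 2 lines overlapped. TFAP4 fell by 1.94 ± 0.08 under the JeKo-1 label and by 1.20 ± 0.08 in Granta-519 on the log2 scale (SE; edgeR adjusted p = 4.14e-29 and 1.53e-19). The effects differed by −0.74 ± 0.11 (edgeR adjusted p = 2.46e-07). It was the member with the most negative change in each line, also in Granta-519, where MYC was higher. The lines differed by −0.04 ± 0.09 with chidamide (edgeR adjusted p = 0.679), a value whose sign turned without the filter on low counts, in a fit of those 2 groups alone and without Granta-519 chidamide replicate 2.

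The difference between the drug effects was called for 7 of the 10 members, on a background of 39.5% of all tested genes. It was more positive under the JeKo-1 label for MYCL, MXD1, MXD3 and MXD4 and more negative for MYC, MGA and TFAP4. With chidamide 9 of the 10 members differed between the lines, on a background of 81.7%. With vehicle all 10 did, on a background of 79.8%. Over all tested genes the median log2 difference between the lines was −0.11 with chidamide and −0.13 with vehicle. In vehicle MYC, MNT, MXD4, TFAP4, MXI1 and MGA were higher under the JeKo-1 label, from 1.95 for MYC to 0.45 for MGA, and MYCL, MAX, MXD1 and MXD3 were lower, down to −1.37 ± 0.10 for MXD3.

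Ordered by level over the 4 groups, most neighbours differed. The exceptions were the pair of MAX, which passed under some alternatives as given above, the pair of TFAP4, and chidamide and vehicle under the JeKo-1 label for MXD3 and MXD4. MYCL ran down from chidamide under the JeKo-1 label, chidamide in Granta-519 and vehicle in Granta-519 to vehicle under the JeKo-1 label, and MXI1 had the vehicle groups the other way round. MXD4 and MNT were highest in vehicle under the JeKo-1 label, then in chidamide there, then in vehicle and chidamide of Granta-519. MAX and MXD3 had Granta-519 above the JeKo-1 label and vehicle above chidamide in each. For MNT the step of 0.26 between chidamide under the JeKo-1 label and vehicle in Granta-519 was lost without vehicle replicate 3 of Granta-519 (0.19; edgeR adjusted p = 0.0699).

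MGA was highest in chidamide under the JeKo-1 label, then in chidamide of Granta-519, vehicle under the JeKo-1 label and vehicle of Granta-519. Its upper step of 0.16 was lost without chidamide replicate 2 of the JeKo-1 label or of Granta-519 (0.12 each; edgeR adjusted p = 0.0583 and 0.0585). The middle step of 0.15 was lost without vehicle replicate 3 of the JeKo-1 label (0.10; edgeR adjusted p = 0.0880), and it was 0.23 without vehicle replicate 1 and 0.32 with upper-quartile scaling. MXD1 ran from vehicle of Granta-519 through chidamide under the JeKo-1 label and chidamide of Granta-519 to vehicle under the JeKo-1 label. Its lowest step of 0.43 was lost without vehicle replicate 2 of the JeKo-1 label (0.27; edgeR adjusted p = 0.213) and without chidamide replicates 2 and 3 of Granta-519 (0.42 and 0.43; adjusted p = 0.0676 and 0.0634).

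The neighbours of MYC on its chromosome did not all follow it. PVT1, a long noncoding RNA gene downstream of MYC, had 34.8, 30.6 and 33.4 CPM with chidamide under the JeKo-1 label, against 23.8, 20.3 and 18.7 CPM with vehicle. Granta-519 showed 23.6, 24.5 and 23.9 CPM with chidamide, against 18.4, 16.4 and 15.1 CPM with vehicle. The chidamide libraries were higher without overlap in both lines, with log2 changes of 0.65 ± 0.09 and 0.53 ± 0.09 (SE; edgeR adjusted p = 5.56e-09 under the JeKo-1 label and 1.72e-06 in Granta-519). The effects on PVT1 differed by 0.12 ± 0.13 (edgeR adjusted p = 0.523).

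CASC11, a noncoding RNA gene beside MYC, had 31.6, 31.6 and 30.2 CPM with chidamide under the JeKo-1 label, against 52.4, 46.7 and 58.0 CPM with vehicle. It fell by 0.75 ± 0.09 on the log2 scale, near the change of MYC there (edgeR adjusted p = 3.95e-10). In Granta-519 it had 7 counts over 3 libraries with chidamide and 6 with vehicle, too few for a fold. POU5F1B, a retrogene upstream of MYC, had 68 counts over 3 Granta-519 libraries with chidamide and 11 with vehicle, and CCAT1, a noncoding RNA gene further upstream, had 13 and 0. Under the JeKo-1 label POU5F1B had 7 counts with chidamide and 0 with vehicle, and CCAT1 had 17 and 0.

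**Figure D4:**
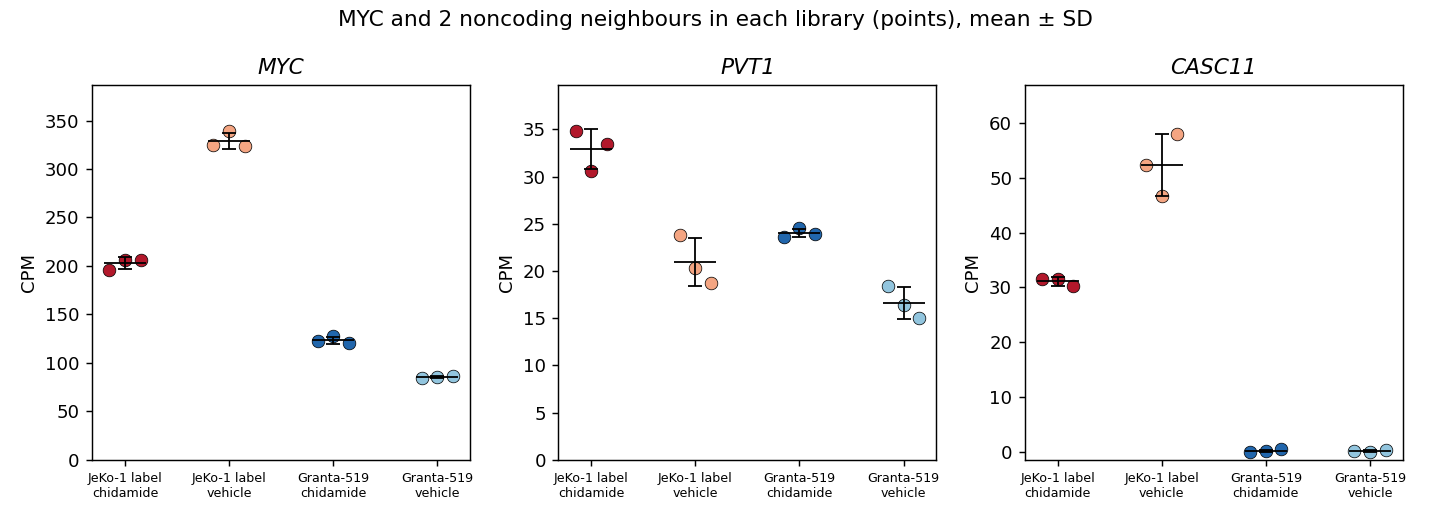
MYC, PVT1 and CASC11 in CPM (vertical axes) in each of 12 libraries (points), with mean and SD of 3 libraries. PVT1 is higher with chidamide in both lines, at 32.9 against 20.9 CPM under the JeKo-1 label and 24.0 against 16.6 CPM in Granta-519, and CASC11 is nearly without counts in Granta-519.

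MLX, a MAX-like partner that some MXD proteins and MNT also use, fell in both lines. It averaged 39.7 ± 1.74 CPM with chidamide and 52.7 ± 1.99 CPM with vehicle under the JeKo-1 label, and 43.9 ± 1.06 and 53.7 ± 3.23 CPM with chidamide and vehicle in Granta-519 (SD, n = 3). MLXIP, its glucose-sensing partner, had 74.4, 78.3 and 83.3 CPM with chidamide under the JeKo-1 label, against 106, 105 and 107 CPM with vehicle. In Granta-519 MLXIP had 92.1, 95.3 and 88.0 CPM with chidamide, against 77.9, 78.7 and 71.0 CPM with vehicle. The groups did not overlap, and MLXIP moved as MYC did, by −0.43 ± 0.05 under the JeKo-1 label and 0.27 ± 0.05 in Granta-519 on the log2 scale (SE; edgeR adjusted p = 7.37e-10 and 1.66e-05).

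Genes known as MYC targets were mostly lower with chidamide in both lines. Of 57 tested genes of a nucleolar and growth target set, 53 fell and 2 rose under the JeKo-1 label and 47 fell and 6 rose in Granta-519. Among all tested genes 31.1% were called lower and 35.3% higher under the JeKo-1 label, and 31.3% and 39.6% in Granta-519. The medians were −0.77 and −0.55 on the log2 scale, beside 0.04 and 0.08 over all tested genes, and 45 genes fell in both lines. The share of all tested genes called alike in both lines was not computed, here or for the lists below. UNG, the uracil glycosylase of base excision repair, averaged 64.6 ± 1.52 CPM with chidamide and 186 ± 8.67 CPM with vehicle under the JeKo-1 label, and SLC19A1, the folate carrier, 42.0 ± 1.83 and 122 ± 11.2 CPM. In Granta-519 HK2, a hexokinase of glycolysis, and WDR74, a ribosome assembly factor, fell by 1.08 ± 0.05 and 0.91 ± 0.07. Against the list, NPM1, a nucleolar chaperone, rose by 0.41 ± 0.04 and NOP56, a core protein of box C/D snoRNPs, by 0.31 ± 0.04 in Granta-519. DUSP2, a phosphatase of MAP kinases, rose by 0.75 ± 0.06 under the JeKo-1 label. The list was fixed with earlier results of these data known, so its direction is a description.

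Of 39 tested genes of a second list, classical MYC-activated genes outside that set, 34 fell and 2 rose under the JeKo-1 label, with a median of −0.62. In Granta-519 23 fell and 6 rose, with a median of −0.16, and the 23 were all among the 34. The background was again 31.1% and 31.3% of all tested genes called lower and 35.3% and 39.6% called higher, the JeKo-1 label first. UBTF, the transcription factor of ribosomal RNA genes, averaged 201 ± 2.91 CPM with chidamide and 499 ± 24.3 CPM with vehicle under the JeKo-1 label, and 133 ± 2.85 and 272 ± 5.62 CPM with chidamide and vehicle in Granta-519. IMPDH1, of guanine nucleotide synthesis, fell by 1.20 ± 0.05 under the JeKo-1 label, whereas its paralog IMPDH2 rose by 0.22 ± 0.04. CDC25A, a phosphatase that activates cyclin-dependent kinases, fell by 0.94 ± 0.06 in Granta-519. TERT, the catalytic subunit of telomerase, and CCND2, a D-type cyclin, rose there by 0.59 ± 0.07 and 1.82 ± 0.14. The difference between the drug effects was called more negative under the JeKo-1 label for 39 of the 57 genes of the first list and 30 of the 39 of the second, and more positive for 3 and 1. Of all tested genes 19.5% were called more negative and 20.0% more positive.

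Among 18 tested genes known as repressed by MYC, 10 rose and 2 fell under the JeKo-1 label and 11 rose and 2 fell in Granta-519, with medians of 0.58 and 0.33, and 7 rose in both. Of all tested genes 35.3% were called higher and 31.1% lower under the JeKo-1 label, and 39.6% and 31.3% in Granta-519, with medians of 0.04 and 0.08. CCND1 is on this list. It was called higher under the JeKo-1 label on 44 counts with chidamide against 5 with vehicle, and it fell by 0.28 ± 0.04 in Granta-519. CDKN1A, the p21 inhibitor of cyclin-dependent kinases, averaged 113 ± 3.35 CPM with chidamide and 32.9 ± 1.82 CPM with vehicle under the JeKo-1 label, and 241 ± 7.80 and 116 ± 2.48 CPM with chidamide and vehicle in Granta-519. BTG2, an antiproliferative gene, rose by 1.41 ± 0.05 under the JeKo-1 label. CEBPA, a myeloid transcription factor gene, rose by 1.06 ± 0.11 in Granta-519, where the myeloid marker sum was also higher with the drug. CDKN2C, the p18 inhibitor of CDK4 and CDK6, fell by 1.01 ± 0.06 in Granta-519. Under the JeKo-1 label its change was −0.16 ± 0.05 (edgeR adjusted p = 0.00858), and the call was lost under upper-quartile scaling, library-size scaling, the missing filter, the length-scaled score and without chidamide replicate 1.

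**Figure D5:**
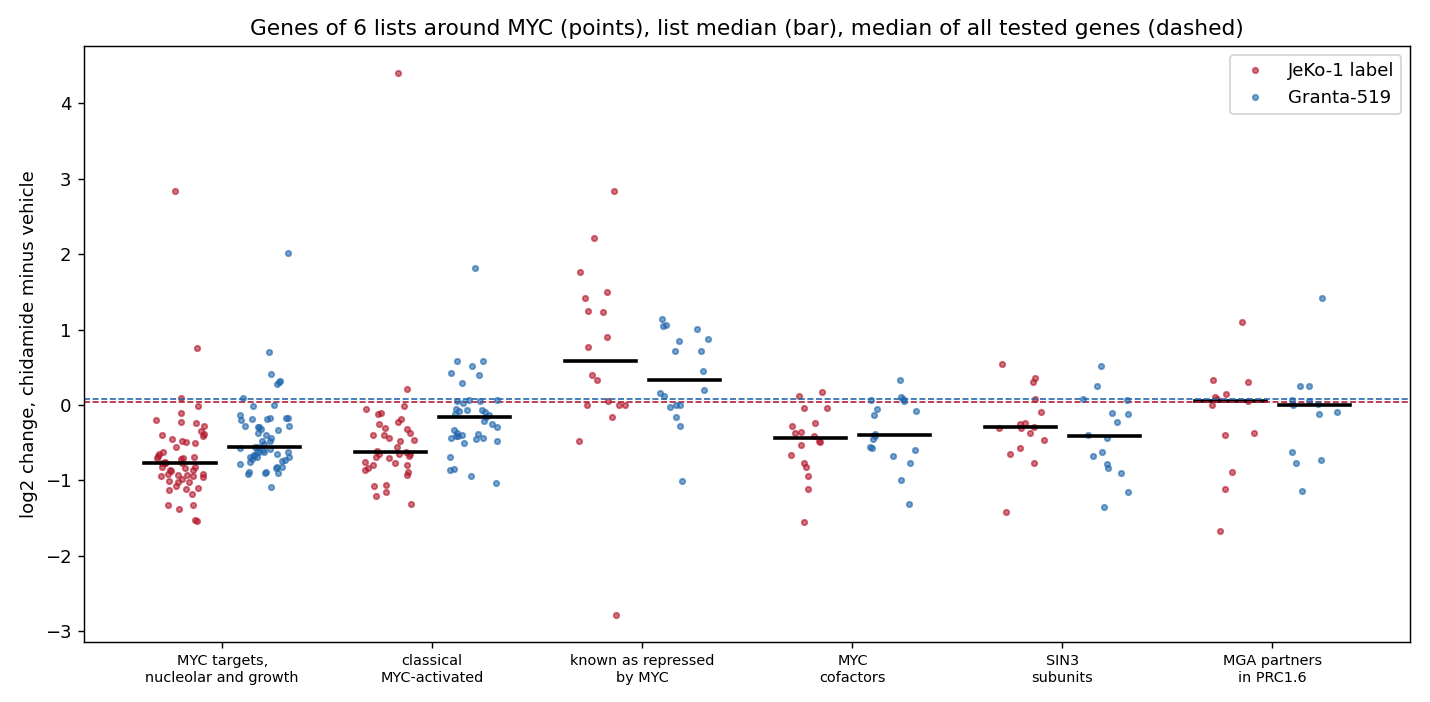
Log2 change with chidamide (vertical axis) of the tested genes of 6 lists (points), under the JeKo-1 label (red) and in Granta-519 (blue), with list medians (black bars) and the medians of all 15087 tested genes (dashed, 0.04 and 0.08). The first 2 lists centre on −0.77 and −0.55 and on −0.62 and −0.16, and the genes known as repressed by MYC centre on 0.58 and 0.33.

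Of 18 coactivators and cofactors, 14 fell and 1 rose under the JeKo-1 label and 11 fell and 1 rose in Granta-519, with medians of −0.44 and −0.39 beside 0.04 and 0.08 over all tested genes. Of those, 31.1% were called lower and 35.3% higher under the JeKo-1 label, and 31.3% and 39.6% in Granta-519. All 11 that fell in Granta-519 also fell under the JeKo-1 label. HCFC1, a chromatin adaptor that binds MYC, averaged 155 ± 2.17 CPM with chidamide and 455 ± 35.6 CPM with vehicle under the JeKo-1 label, and 173 ± 6.34 and 429 ± 29.4 CPM with chidamide and vehicle in Granta-519. KAT5, the TIP60 acetyltransferase, fell by 0.99 ± 0.09 in Granta-519. CDK9, the kinase of the elongation factor P-TEFb, was the cofactor that rose in each line, by 0.18 ± 0.05 under the JeKo-1 label and 0.33 ± 0.05 in Granta-519.

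The SIN3 complex is the corepressor through which MXI1 and the MXD proteins act. Of its 16 subunits 12 fell and 3 rose under the JeKo-1 label and 10 fell and 2 rose in Granta-519. Their medians were −0.29 and −0.41, beside 0.04 and 0.08 over all tested genes. The background was 31.1% called lower and 35.3% called higher under the JeKo-1 label, and 31.3% and 39.6% in Granta-519. All 10 that fell in Granta-519 also fell under the JeKo-1 label. BRMS1, a SIN3-bound suppressor of metastasis, averaged 28.3 ± 0.85 CPM with chidamide and 75.4 ± 6.35 CPM with vehicle under the JeKo-1 label, and 22.8 ± 0.21 and 57.9 ± 1.74 CPM with chidamide and vehicle in Granta-519. SIN3A, the scaffold that the antagonists bind, fell by 1.16 ± 0.05 in Granta-519. ING2, a reader of methylated histone H3 in the complex, fell by 0.76 ± 0.10 under the JeKo-1 label. BRMS1L, a paralog of BRMS1, rose there by 0.55 ± 0.12, and HDAC2, a catalytic subunit and drug target, rose by 0.31 ± 0.04 under the JeKo-1 label and by 0.25 ± 0.04 in Granta-519.

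Regulators of MYC protein stability, of which 17 were tested, fell in 10 and rose in 2 cases under the JeKo-1 label and fell in 10 and rose in 1 in Granta-519. Their medians were −0.15 and −0.22, on the same background of 31.1% and 31.3% of genes called lower and 35.3% and 39.6% called higher. AXIN1, a scaffold for MYC degradation, and USP36, a nucleolar enzyme that removes ubiquitin from MYC, fell by 1.16 ± 0.06 and 0.95 ± 0.05 under the JeKo-1 label. STUB1, a ubiquitin ligase of the chaperone system, and GSK3A, a paralog of the kinase that marks MYC for turnover, fell by 0.99 ± 0.09 and 0.81 ± 0.05 in Granta-519. HUWE1, a ubiquitin ligase of MYC, rose by 0.32 ± 0.04 under the JeKo-1 label and 0.17 ± 0.04 in Granta-519, and the call in Granta-519 was lost without the filter on low counts, at 0.06 (edgeR adjusted p = 0.222). GSK3B, the kinase itself, rose by 0.28 ± 0.06 under the JeKo-1 label.

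Of 17 tested regulators of MYC transcription and mRNA, 10 fell and 3 rose under the JeKo-1 label and 8 fell and 5 rose in Granta-519, with medians of −0.27 and −0.15. Over all tested genes the medians were 0.04 and 0.08, and under the JeKo-1 label 31.1% were called lower and 35.3% higher. The shares in Granta-519 lie nearer to the background there, 31.3% called lower and 39.6% called higher, than those of the cofactors. PUF60, which restrains MYC transcription through its far upstream element, fell by 0.92 ± 0.05 under the JeKo-1 label and 0.75 ± 0.05 in Granta-519. E2F1, an activator of MYC, fell by 0.87 ± 0.04 under the JeKo-1 label. IGF2BP3, an RNA-binding protein that stabilises MYC mRNA, rose there by 0.72 ± 0.06. BCL6, the germinal centre repressor, and PRDM1, the plasma cell repressor of MYC, rose in Granta-519 by 1.97 ± 0.07 and 0.58 ± 0.13, and MYC was higher there too.

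The genes whose 4 group means were most like those of MYC were sought among 9512 tested genes with at least 10 CPM on average, by the root mean square difference of centred log2 CPM over the 4 groups. COA7, an assembly factor of respiratory complexes, differed from MYC by 0.06 and TTC9 by 0.06, followed by the snoRNA host SNHG12 (0.12), CISD3 (0.12), an iron-sulfur protein of mitochondria, and the immunoglobulin light chain-like gene IGLL5 (0.12). COA7 averaged 43.1 CPM with chidamide and 69.8 CPM with vehicle under the JeKo-1 label, and 23.9 and 18.2 CPM with chidamide and vehicle in Granta-519. For TFAP4 the nearest was L3MBTL2 of PRC1.6 at 0.11, then FAM195A, ATAD3A, SLC38A5 and CD81 at 0.13 to 0.15. ATAD3A, an ATPase of the mitochondrial membrane, averaged 113 CPM with chidamide and 378 CPM with vehicle under the JeKo-1 label, and 130 and 252 CPM with chidamide and vehicle in Granta-519. The likeness rests on 4 group means and says nothing of shared control.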

How the data were processed

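A table of whole-number counts by gene symbol was deposited by the authors. Alignment was with STAR to hg19, per the submitters' processing notes. The aligner's version, the counter, its annotation and any strand setting are not given in the sources used here. Reads shared between overlapping or antisense genes therefore cannot be told apart: in GENCODE 29, exons of MXD3 overlap PRELID1 and RAB24, those of MXD1 overlap SNRNP27, and those of MXD4 overlap MIR4800, while MAX, MGA, MNT, MXI1 and MYCL have antisense partners outside the table used here. A further table from the authors carries the name TPM but holds a length-scaled score: its columns sum to different totals, and over 9766 genes with 30 or more counts in every library each value was the count, relative to its library total, divided by a constant of the gene, with a spread of at most 0.00597 of that constant. That constant followed transcript length (Spearman rho 0.75 across 9310 genes, which are not independent), so levels of different genes were compared on the score only.

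The test on counts was that of edgeR 4.0.16 under R 4.3.3 (filterByExpr by group, TMM, robust glmQLFit on 4 group means with 8 residual degrees of freedom, glmQLFTest), adjusted by Benjamini-Hochberg over 15087 genes with 0.05 as the threshold; edgeR's common biological variation coefficient came to 0.0422. The fit also pools information on the spread over genes, so a p-value rests on more than these 8 degrees of freedom. The SE was back-calculated as the absolute log2 change over the square root of F and is approximate. The fit was tried on simulated data with 200 genes changed in a single group and the same variation coefficient for all genes. Most genes were unchanged there, so the trial does not cover scaling where most genes change. Alternatives were other scalings, no filter, DESeq2 1.42.0, limma 3.58.1 on log2 of the score with a pseudocount of 0.1 or 1, a replicate block and leaving out each library. Groups and replicate numbers came from the library titles. Replicates of a group differed by more than sampling noise (chi-square per gene 1.62 to 5.39), and none was merged. The vehicle pairs under the JeKo-1 label had the highest values, 3.03 to 5.39, against 1.62 to 2.89 in the other groups. Both pairs with replicate 2 of that group stood highest, at 5.39 and 4.51. Spreadsheet dates replaced 28 gene names with 0.26% of counts. The members and lists were chosen with earlier results of these data known. All members are named; of each other list and line, up to 2 genes with the most positive and 2 with the most negative called change and a mean of at least 10 CPM may be named, and any other gene was chosen for its place beside MYC or its group means. Promoter windows are from RefSeq on GRCh38.p14, matched by symbol, and no coordinate was moved between builds. Figures were drawn with matplotlib.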

Additional observations from a re-analysis of the deposited data

Results flagged for a closer look

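The drug effect differed between the 2 lines by the test of the difference itself (edgeR's quasi-likelihood test, adjusted over all tested genes) for 7 members. The log2 difference, JeKo-1 label minus Granta-519, was −1.24 for MYC, 1.11 for MYCL, 1.66 for MXD1, 0.95 for MXD3, 0.74 for MXD4, −0.29 for MGA and −0.74 for TFAP4. MLXIP of the MLX branch, whose change was also opposite in the lines, differed by −0.70. The call for MGA was lost under library-size scaling, without the filter on low counts and with the length-scaled score.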

How the results depend on the processing

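Every member change within a line that passed kept its direction and its side of the threshold under all 23 alternatives, except MAX in Granta-519, and the counts of members and of genes called stayed within 1.5 times. Sizes moved more: of the 18 such changes, 11 moved by over 1.5 times on the score with a pseudocount of 1, 3 at 0.1, filtered or not, 2 with upper-quartile scaling, and 1 each with library-size scaling and without the filter. At a pseudocount of 1, which shrinks low scores, MYCL changed by 0.68 under the JeKo-1 label and 0.40 in Granta-519, MXD1 by 0.073 and −0.094 and MNT by −0.55 and −0.37. MAX ranged from −0.34 to −0.13 under the JeKo-1 label and from −0.32 to −0.11 in Granta-519. Values that did not pass turned sign as follows. For MXD3 and MXD4 under the JeKo-1 label, the log2 changes were 0.068 and 0.062 with upper-quartile scaling, 0.054 and 0.047 with library-size scaling, 0.056 and 0.048 with the score at a pseudocount of 0.1, filtered or not, and 0.027 and 0.030 at a pseudocount of 1; leaving out single libraries gave −0.17 to 0.053 for MXD3. The difference between the drug effects on MAX became 0.029 with library-size scaling, 0.053 without the filter, 0.037 with the score at a pseudocount of 0.1, filtered or not, and 0.039 at 1; that on MNT became 0.053 with library-size scaling and 0.077 without the filter, and that on MXI1 0.035 with the score at a pseudocount of 1. TFAP4 between the lines in chidamide became 0.016 without the filter and 0.0073 with those 2 groups alone, and ranged from −0.12 to 0.0094 over single libraries left out. The cause of these changes was not tested. The log2 ratio of MYC and MYCL to the antagonists moved to −1.04 without MNT and −0.53 on CPM under the JeKo-1 label, against −0.66, and to 0.76 without MNT in Granta-519, against 0.87.

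Scaling moved the median of all genes: under the JeKo-1 label from 0.04 to 0.19 with upper-quartile and 0.17 with library-size scaling, and in vehicle between the lines from −0.13 to −0.27 with library-size scaling. The share of called genes that were higher under the JeKo-1 label was 53.1%, or 64.9% with upper-quartile and 63.7% with library-size scaling; for the difference between the effects it was 50.6%, or 70% with library-size scaling and 72.9% without the filter. Small list counts moved by more than 1.5 times. With upper-quartile scaling, the genes called higher became 6 PRC1.6 subunits against 3, 4 cofactors against 1, 4 SIN3 subunits against 2, 11 classical MYC-activated genes against 6 and 3 stability regulators against 1 in Granta-519, and 7 PRC1.6 subunits against 4, 2 cofactors against 1, 4 classical genes against 2 and 5 transcription regulators against 3 under the JeKo-1 label. Under that label the classical genes called higher became 1 with the score or with the 2 groups alone, the first target list's became 1 with the 2 groups alone, and the genes known as repressed by MYC called lower went to 0 or 1 against 2. Without the filter, 7 PRC1.6 subunits were called lower in Granta-519 against 4, and 0 stability regulators higher against 1. RLE scaling and DESeq2 each called 4 SIN3 subunits and 3 cofactors higher in Granta-519, where the cofactors became 2 or 3 without any library other than vehicle replicate 3 of the JeKo-1 label and chidamide replicate 2 and vehicle replicate 3 of Granta-519.

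Same-numbered libraries of different groups correlated between −0.03 and 0.04 in their deviations, and a library correlated best with its own number in 14 of 36 cases, so the numbers were not taken as pairs. With the replicate block 10068 genes were called under the JeKo-1 label, 10714 in Granta-519, 6092 for the difference, 12339 between the lines in chidamide and 12046 in vehicle, and 8, 10, 7, 9 and 10 members. At 136 counts over 3 libraries, MXD1 in vehicle under the JeKo-1 label had the lowest depth among the members.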
